A study of Mus musculus with 4 samples.

Results

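The Hox genes are the 39 rows, of 47729 genes in the table, whose symbol is Hox followed by a cluster letter from a to d and a paralogue number. The Hoxa cluster has 11 of them, Hoxb has 10, and Hoxc and Hoxd have 9 each. They were measured by RNA-seq in tumors that cells of the mouse Lewis lung carcinoma line (LLC) formed under the skin of the back of C57BL/6 mice, collected 5 days after the graft. LLC-Chem tumors came from cells transfected with a pEFIN plasmid that encodes the murine chemerin (1-157) form, and LLC tumors from cells labelled wild type. The comparison asks which transcripts differ between tumors of cells labelled as making bioactive chemerin and tumors of cells labelled wild type. Each group has 2 libraries, each a pool of 3 tumors, so a value is a mean over animals within a pool. Transfected cells had been selected and collected as individual clones, so a difference that belongs to a clone and a difference that follows from chemerin cannot be told apart.

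Hox genes encode homeodomain transcription factors that give cells their position along the body axis and the limbs. In mammals they lie in 4 clusters, in each of which genes are ordered from paralogue group 1 at one end (anterior, early) to group 13 at the other (posterior, late), and genes with the same number in different clusters descend from a common ancestor. Polycomb complexes keep the clusters silent and trithorax complexes keep parts of them active. Adult fibroblasts and many tumor lines carry the Hox pattern of the place where their ancestors arose. Hox proteins bind DNA together with TALE homeodomain cofactors of the Pbx and Meis families.

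Values are RPM, reads scaled to 1000000 per library, and the fitted totals per library ran from 28470000 to 33990000 reads. At this depth 3 reads, the limit that a count of 0 allows, correspond to 0.088 to 0.105 RPM, and these limits cover counting error only. The deposited values go in steps of 0.05 RPM, each of which holds 1 or 2 reads at these totals, so read numbers are estimates and low ones are given as the range that the steps allow. That range takes the values as rounded up to the next step, which fitted them better than rounding to the nearest. Pairs of values are given as pool 1 and pool 2 of LLC against pool 1 and pool 2 of LLC-Chem. The row of the transfected gene itself, Rarres2, measured 102 and 98.2 RPM for LLC against 106 RPM in each LLC-Chem pool. Its log2 fold change was 0.08 (adjusted p = 0.541 from limma), so this row does not show the difference that the labels name. Most defining lung markers were at or near 0, with Nkx2-1 at 0 in all 4 pools and Sftpc, Sftpb and Scgb1a1 at 0.15 RPM or less, but Napsa, also a lung marker, measured 9.25 and 10.8 RPM for LLC against 5.55 and 3.45 RPM for LLC-Chem, while the epithelial keratins Krt8 and Krt18 lay between 82.8 and 167 RPM. In bulk tumors, fewer cells of a type and less RNA per cell cannot be told apart, and p-values measure only the spread between 2 pools per group.

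Of the 39 Hox genes, 28 averaged at least 1 RPM over the 4 pools and were tested with limma on log2(RPM + 0.5), so that log2 changes of LLC-Chem over LLC are on this scale and understate those of low genes. Among them 7 were called higher in LLC-Chem tumors at an adjusted p under 0.05, which is 25% of those tested, beside 9.54% of all 13694 genes tested. A further 4 were called lower, 14.3% of those tested, beside 13.5% of all genes. The genes called higher were Hoxa2, Hoxa3, Hoxa5, Hoxb9, Hoxd8, Hoxd9 and Hoxd10, and those called lower were Hoxa11, Hoxc6, Hoxc8 and Hoxc10. The share called higher lay above the background and the share called lower near it. Not every member had the same chance to be called, since Hoxa6, Hoxa11 and Hoxc10 reached the 1 RPM mean only through the group in which they are more abundant.

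The tested genes of Hoxc and of Hoxd each lay on one side, in opposite directions, while Hoxa and Hoxb had fold changes on both sides of 0. All 4 tested Hoxd genes had LLC-Chem pools that lay above the pair of LLC pools, and all 6 tested Hoxc genes had LLC-Chem pools that lay below it. The pools did not overlap in the higher direction for 11 of the 28 tested Hox genes, beside 33.1% of all genes tested. They did not overlap in the lower direction for 8, beside 39.3% of all genes, and they overlapped for the other 9. The median log2 fold change was 0.17 over the tested Hoxa genes, 0.17 over Hoxb, −1.05 over Hoxc and 0.86 over Hoxd. Over all tested Hox genes it was 0.10, and over all genes tested it was −0.04.

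**Figure D1:**
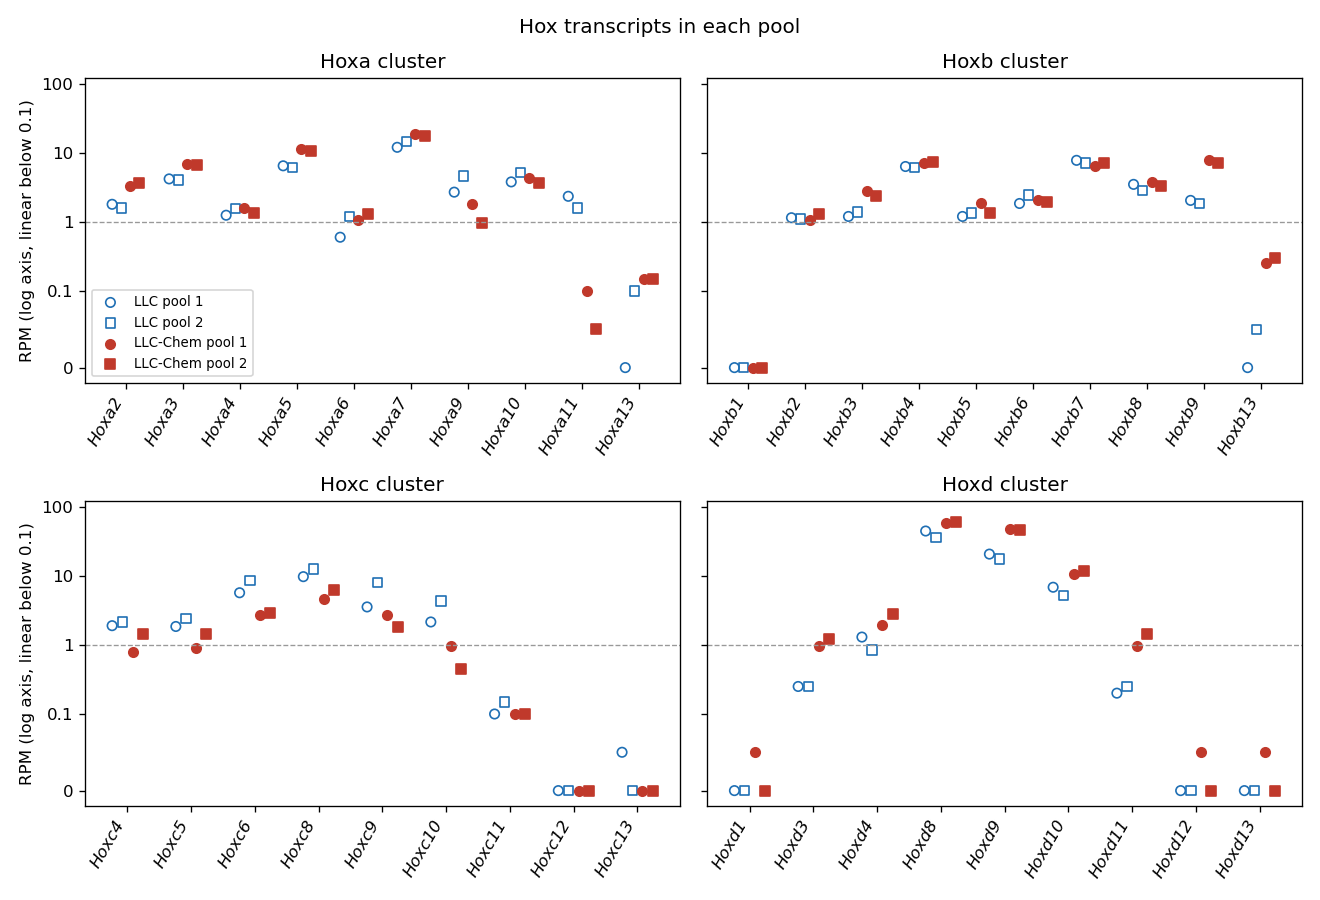
RPM of 38 Hox genes in each pool, one panel per cluster with genes in paralogue order, on a log axis that is linear below 0.1. Open blue symbols are the LLC pools and filled red symbols the LLC-Chem pools, and the dashed line marks 1 RPM. The red symbols lie below the blue from Hoxc4 to Hoxc10 and above them from Hoxd3 to Hoxd11.

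Leaving out any one of the 4 pools left 0 Hox genes called by limma. The log2 fold change then ranged from 1.62 to 1.77 for Hoxb9, 1.17 to 1.39 for Hoxd9, −1.46 to −0.91 for Hoxc6 and −1.17 to −0.80 for Hoxc8. No called gene that could be fitted changed direction, but Hoxa11 fell under the 1 RPM mean without either LLC pool and had no value there. The smallest adjusted p over all genes then lay between 0.043 and 0.060. Hoxb9 and Hoxd9 passed under 12 of 17 alternatives and Hoxa3, which passed under the fewest, under 7. With all pools, edgeR's quasi-likelihood test on the estimated reads called 7 higher and 4 lower, beside 11.4% and 11.8% of all genes.

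Hoxd was the most abundant cluster and the one that gained most. Its 9 genes summed to 74.0 and 60.4 RPM for LLC against 122 and 124 RPM for LLC-Chem, which is 1.83 times the LLC mean. Both LLC-Chem pools lay above both LLC pools. The share of Hoxd in the summed RPM of all Hox genes was 45.7% and 36.3% in the LLC pools and 55.4% and 56.7% in the LLC-Chem pools. The Hoxd cluster spans chr2:74668310-74765142 of GRCm38 in the annotation used.

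Hoxd8 and Hoxd9 were the Hox genes with the highest level per length. Hoxd8 measured 44.7 and 36.2 RPM for LLC against 58.5 and 61.1 RPM for LLC-Chem, a log2 change of 0.57 (standard error, SE, 0.13, limma adjusted p = 0.038). Hoxd9 (ENSMUSG00000043342, chr2:74697727-74700208, plus strand) patterns the upper limb and the trunk with its group 9 paralogues. It measured 20.7 and 17.6 RPM against 48.4 and 45.9 RPM. Both LLC-Chem pools stood far above the spread of the LLC pools, a log2 change of 1.28 (SE 0.13, limma adjusted p = 0.011). Per kilobase of exon, Hoxd9 went from 8.97 RPM in LLC tumors to 22.1 RPM in LLC-Chem tumors, level there with the 21.8 RPM of Hoxd8. In LLC tumors Hoxd8 stood above it, at 14.7 RPM per kilobase.

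Hoxd10, which takes part in patterning the hindlimb and the motor neurons that innervate it, measured 6.85 and 5.20 RPM against 10.7 and 11.7 RPM. It rose by a log2 change of 0.86 (SE 0.20, limma adjusted p = 0.035). Hoxd4, a gene of the neck and hindbrain, measured 1.30 and 0.85 RPM against 1.95 and 2.80 RPM, a log2 change of 0.87 that did not pass the threshold (limma adjusted p = 0.075). The Hoxd4 pools did not overlap, but 52.3% of its exon bases lie under another gene, where reads cannot be assigned with certainty.

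Hoxd3 and Hoxd11, on either side of that stretch, were below the 1 RPM mean and so outside the main test. Hoxd3 measured 0.25 RPM in each LLC pool against 0.95 and 1.20 RPM for LLC-Chem, 13 to 14 reads in LLC against 70 to 72 in LLC-Chem. Hoxd11 measured 0.20 and 0.25 RPM against 0.95 and 1.45 RPM, 11 to 13 reads against 78 to 80. When the filter was set at 0.3 RPM, Hoxd3 had an adjusted p of 0.028 and Hoxd11 an adjusted p of 0.028 (limma), but both reached that mean only through the LLC-Chem pools. Of the exon bases of Hoxd3, 62.8% lie under another gene. The end genes Hoxd1, Hoxd12 and Hoxd13 were at 0 in both LLC pools and in 1 LLC-Chem pool, with 0.05 RPM in the other, below the limit of 3 reads.

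The 250 bases before the RefSeq start of Hoxd9 and Hoxd10 are shown because both genes rose and lie next to each other, and those of Hoxa11, on another chromosome, because it was the Hox gene that fell most. They are RefSeq promoter sequences of GRCm38.p6, written 5′ to 3′ on the strand of the gene. Against the GENCODE starts used for the other coordinates, the Hoxd9 window runs 36 bases into the gene, the Hoxd10 window ends 33 bases before it and the Hoxa11 window ends at it. Capitals mark matches on either strand to ACGTG (the core of the hypoxia response element), AGGTCA (a nuclear receptor half-site), TAATTA (a homeodomain core site) or TATAAA. In Hoxd10 the palindrome holds ACGTG on both strands and overlaps the AGGTCA match.
Hoxd9, chr2:74697513-74697762, plus strand: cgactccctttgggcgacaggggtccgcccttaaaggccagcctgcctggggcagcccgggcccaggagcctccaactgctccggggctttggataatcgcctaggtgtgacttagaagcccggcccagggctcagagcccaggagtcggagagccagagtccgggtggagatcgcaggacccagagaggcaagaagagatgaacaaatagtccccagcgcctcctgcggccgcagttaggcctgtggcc
Hoxd10, chr2:74691641-74691890, plus strand: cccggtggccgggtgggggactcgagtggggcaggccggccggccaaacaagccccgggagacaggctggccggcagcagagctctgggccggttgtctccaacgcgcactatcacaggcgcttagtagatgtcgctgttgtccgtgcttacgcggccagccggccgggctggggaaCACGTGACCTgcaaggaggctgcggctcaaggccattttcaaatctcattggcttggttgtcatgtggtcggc
Hoxa11, chr6:52245811-52246060, minus strand: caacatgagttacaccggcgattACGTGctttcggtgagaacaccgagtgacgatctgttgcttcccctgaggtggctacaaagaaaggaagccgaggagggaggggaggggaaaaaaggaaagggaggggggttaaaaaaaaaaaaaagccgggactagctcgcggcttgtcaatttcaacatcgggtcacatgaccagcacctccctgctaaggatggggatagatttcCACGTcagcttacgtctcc
The Hoxd9 window held none of these motifs, and the Hoxa11 window held ACGTG at 2 places. The promoter table held 24 windows for 22 of the 39 Hox genes. ACGTG was in 5 of the 24 windows and in 16.6% of all 32851 promoter windows of this length. AGGTCA was in 6 of the 24 and in 14.0% of all, TAATTA in 2 and in 4.84%, and TATAAA in 4 and in 12.4%. These are counts of letters in a window and say nothing of binding. The promoters of Hoxb9, Hoxc6, Hoxc8 and Hoxc10 were not analysed here.

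**Figure D2:**
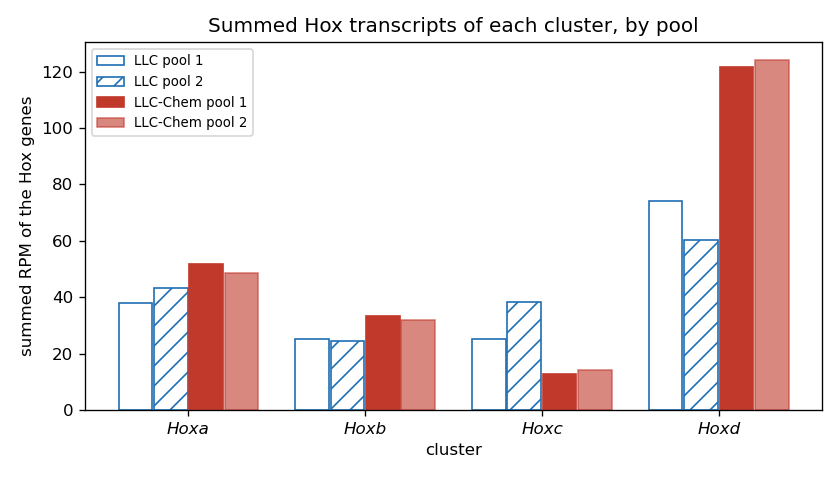
Summed RPM of the Hox genes of each cluster, with 1 bar per pool. Open bars are the LLC pools, with pool 2 hatched, and filled bars the LLC-Chem pools, with pool 2 lighter. Both LLC-Chem bars stand above both LLC bars for Hoxa, Hoxb and Hoxd, and below them for Hoxc.

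Hoxc was the only cluster with a lower sum in LLC-Chem tumors. Its 9 genes summed to 25.0 and 38.2 RPM for LLC against 12.8 and 14.3 RPM for LLC-Chem, which is 0.43 times the LLC mean. Its share of the summed RPM of all Hox genes was 15.5% and 23.0% in the LLC pools and 5.82% and 6.53% in the LLC-Chem pools. The cluster spans chr15:102921103-103036852 of GRCm38.

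Hoxc6 (ENSMUSG00000001661, chr15:102998257-103011881, plus strand) is a gene of the thoracic region. It measured 5.70 and 8.60 RPM for LLC against 2.70 and 2.90 RPM for LLC-Chem. It fell by 1.19 on the log2 scale (SE 0.25, limma adjusted p = 0.030). Hoxc8, which patterns the lower cervical and thoracic skeleton and its motor neurons, measured 9.74 and 12.5 RPM against 4.65 and 6.15 RPM. It fell by 0.98 on the log2 scale (SE 0.22, limma adjusted p = 0.034). In both genes each LLC-Chem pool lay below the pair of LLC pools, and neither shares exon bases with another gene.

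Hoxc10, a lumbar and hindlimb gene, measured 2.15 and 4.30 RPM against 0.95 and 0.45 RPM. It fell by 1.60 on the log2 scale (SE 0.38, limma adjusted p = 0.039). Hoxc9, which sets thoracic motor neuron identity, measured 3.55 and 8.10 RPM against 2.70 and 1.80 RPM, a log2 change of −1.12 (SE 0.40, limma adjusted p = 0.096). Hoxc9 did not pass the threshold, though edgeR's likelihood ratio test and DESeq2 called it lower. Its groups did not overlap, but its LLC pools differed 2.28 times from each other. Without a single pool, the Hoxc10 fold change ranged from −2.03 to −1.17 and that of Hoxc9 from −1.66 to −0.58.

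Hoxc4 measured 1.90 and 2.15 RPM against 0.80 and 1.45 RPM, a log2 change of −0.66 (limma adjusted p = 0.138). Hoxc5 measured 1.85 and 2.40 RPM against 0.90 and 1.45 RPM, a log2 change of −0.66 (limma adjusted p = 0.132). Neither passed the threshold, although in both the pools did not overlap. Hoxc11 reached at most 0.15 RPM, Hoxc13 had 0.05 RPM in 1 LLC pool and 0 elsewhere, and Hoxc12 was at 0 in all 4 pools.

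All 6 tested Hoxc genes were also higher in LLC pool 2 than in LLC pool 1, and all 4 tested Hoxd genes were lower there. Among the fibroblast markers, 8 of 9 were higher in LLC pool 2 than in LLC pool 1. Between the LLC-Chem pools, 4 of the 6 Hoxc genes, 3 of the 4 Hoxd genes and 0 of the 9 fibroblast markers were higher in pool 2. The fibroblast markers summed to 24082 and 45448 RPM for LLC against 33969 and 30765 RPM for LLC-Chem. Between the groups, 3 fibroblast markers were called lower, Col1a1, Col1a2 and Pdgfrb, 1 was called higher, Pdgfra, and 5 were not called. Over all genes 13.5% were called lower and 9.54% higher. The median log2 fold change over the 9 fibroblast markers was 0.49. The 6 endothelial markers summed to 236 and 198 RPM for LLC against 65.9 and 38.1 RPM for LLC-Chem, with 5 called lower, beside 13.5% of all genes. The leukocyte markers summed to 778 and 1053 RPM against 505 and 276 RPM, with 4 of 5 tested called lower, beside 13.5% of all genes. Cd3e and Ly6g were at most 0.65 RPM. Of the adipocyte markers 1 of 3 tested was called higher, and of the skeletal muscle markers the single one tested, beside 9.54% of all genes. The single keratinocyte marker tested was not called. The 11 lung epithelium and carcinoma markers summed to 321 and 290 RPM for LLC against 271 and 201 RPM for LLC-Chem. Of the 4 tested, Napsa was called lower, beside 13.5% of all genes. Krt8, Krt18 and Krt19 were not called, and the median log2 fold change of the 4 was −0.89. The part of these cells in the Hox differences was not tested.

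The Hoxa cluster, at chr6:52155590-52260880 of GRCm38, held genes of both directions. Its 11 genes summed to 37.9 and 43.3 RPM for LLC against 51.9 and 48.5 RPM for LLC-Chem, 1.24 times the LLC mean. The genes called higher had paralogue numbers from 2 to 5, and the gene called lower was Hoxa11.

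Hoxa5, which is needed for lung and trachea development, measured 6.50 and 6.15 RPM against 11.4 and 10.6 RPM. It rose by a log2 change of 0.76 (SE 0.16, limma adjusted p = 0.031). Hoxa2, which gives the second pharyngeal arch its identity, measured 1.80 and 1.60 RPM against 3.35 and 3.70 RPM, a log2 change of 0.87 (SE 0.21, limma adjusted p = 0.040). Hoxa3, needed for the thymus and parathyroid, measured 4.20 and 4.05 RPM against 6.95 and 6.65 RPM, a log2 change of 0.66 (SE 0.18, limma adjusted p = 0.049). In all 3 genes the pools of each group lay close together and apart from the other group. Hoxa3 stood just inside the threshold and had an adjusted p over 0.05 with a 0.1 RPM pseudocount or with a 0.3 RPM filter, and 27.1% of its exon bases lie under another gene.

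Hoxa11 (ENSMUSG00000038210, chr6:52242106-52245810, minus strand) shapes the forearm, the lower leg and the uterus. It was close to 0 in the LLC-Chem tumors, with 2.35 and 1.60 RPM for LLC against 0.10 and 0.05 RPM for LLC-Chem. The ratio of the mean RPM was 26.3. In reads it was 116 to 117 in the LLC libraries against 3 to 4 in the LLC-Chem libraries, a depth-adjusted ratio between 33.0 and 44.4, with 95% counting intervals that reached from 12.6 to 218. On log2(RPM + 0.5) it fell by 2.09 with a standard error of 0.28 (limma adjusted p = 0.014). The antisense row Hoxa11os, which covers part of the same exons, went the same way, with 17 to 19 reads against 1. Of the Hoxa11 exon bases, 35.0% lie under another gene, and since the counting is not stated to use strand, reads from the 2 strands cannot be told apart.

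Neither of the next Hoxa genes on its anterior side was called. Hoxa10, known for its part in the uterus and in blood progenitors, measured 3.80 and 5.20 RPM against 4.30 and 3.70 RPM, with overlapping pools and a log2 change of −0.14 (limma adjusted p = 0.663). Hoxa9, a gene of blood stem cells and leukemia, measured 2.70 and 4.65 RPM against 1.80 and 0.95 RPM, a log2 change of −1.15 (SE 0.35, limma adjusted p = 0.066). Hoxa9 did not pass the threshold, though edgeR's likelihood ratio test and DESeq2 called it lower. Hoxa13, a gene of the hand, foot and urogenital tract, had 2 reads in LLC and 8 to 10 in LLC-Chem tumors, a ratio between 3.51 and 4.39 with 95% counting intervals that reached from 0.70 to 41.2.

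Hoxa4, Hoxa6 and Hoxa7 were not called. Hoxa7 was the most abundant of them, with 12.0 and 14.7 RPM against 18.8 and 17.3 RPM, a log2 change of 0.42 (limma adjusted p = 0.108). Hoxa4 measured 1.25 and 1.55 RPM against 1.60 and 1.35 RPM. Hoxa6 measured 0.60 and 1.20 RPM against 1.05 and 1.30 RPM. For Hoxa4 and Hoxa6 the pools of the 2 groups overlapped, and their 95% intervals of the log2 fold change reached from −0.54 to 0.65 and from −0.47 to 1.05.

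**Figure D3:**
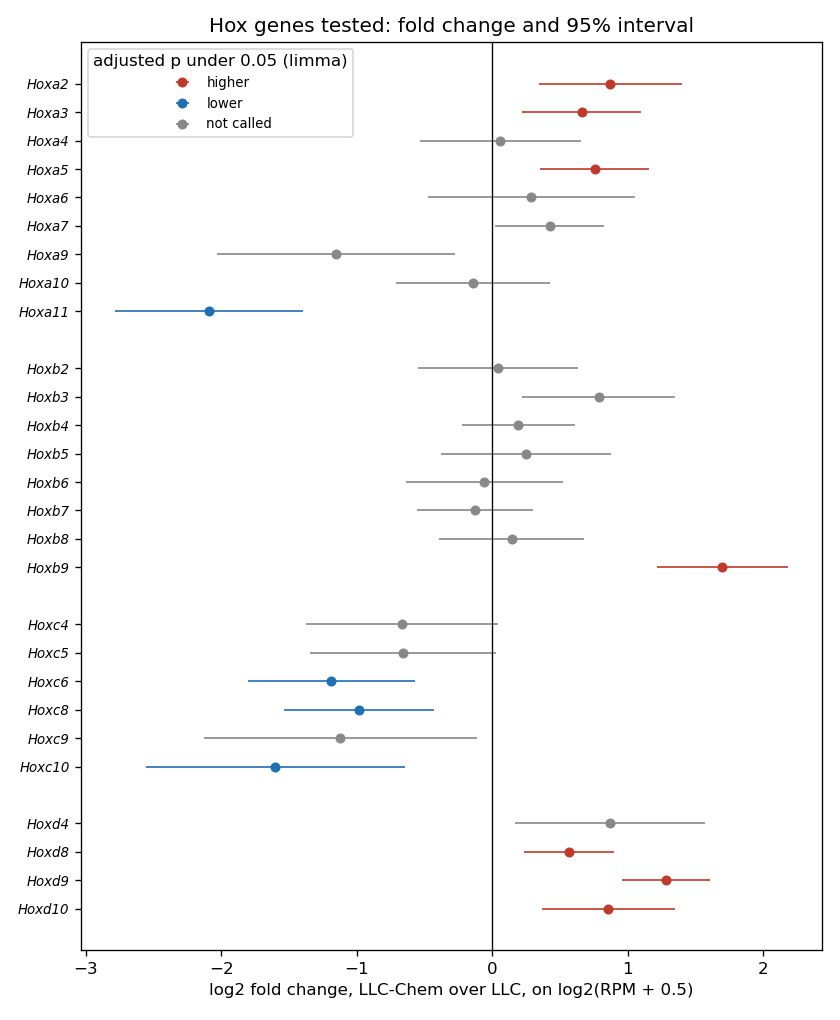
Log2 fold change of LLC-Chem over LLC tumors on log2(RPM + 0.5) for 27 tested Hox genes, grouped by cluster, with bars for the 95% interval from limma. Red marks the 7 genes called higher, blue the 4 called lower and gray 16 not called. The Hoxc points all lie left of 0 and the Hoxd points all lie right of it.

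The Hoxb cluster, at chr11:96194316-96368256 of GRCm38, had 1 gene called. Hoxb9 (ENSMUSG00000020875, chr11:96271457-96276595, plus strand) patterns the ribs and the mammary gland with its group 9 paralogues. It measured 2.05 and 1.85 RPM for LLC against 7.85 and 7.05 RPM for LLC-Chem. It rose by a log2 change of 1.70 (SE 0.20, limma adjusted p = 0.012), the largest rise among the 28 tested. None of its exon bases lie under another gene. Its next neighbor Hoxb8, 5309 bases away, measured 3.50 and 2.85 RPM against 3.80 and 3.30 RPM, with overlapping pools.

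The other 7 tested Hoxb genes were not called. Hoxb3, active in the hindbrain and in blood progenitors, came closest, with 1.20 and 1.40 RPM against 2.80 and 2.40 RPM, a log2 change of 0.78 (SE 0.23, limma adjusted p = 0.057). Its pools did not overlap, and 52.9% of its exon bases lie under another gene. Hoxb4, known for its part in blood stem cell expansion, measured 6.35 and 6.15 RPM against 7.10 and 7.30 RPM, a log2 change of 0.19 (limma adjusted p = 0.423), with a 95% interval from −0.23 to 0.61.

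Hoxb7, the most abundant gene of the cluster per length, measured 7.80 and 7.15 RPM against 6.45 and 7.15 RPM, with a 95% interval of the log2 fold change from −0.56 to 0.30. The ranges over the 4 pools were 1.05 to 1.30 RPM for Hoxb2, 1.20 to 1.90 RPM for Hoxb5 and 1.85 to 2.45 RPM for Hoxb6, each with overlapping groups. Hoxb13, a gene of the prostate and tail, had 1 read in LLC and 16 to 18 in LLC-Chem tumors, a ratio between 14.1 and 15.8 with 95% counting intervals that reached from 2.18 to 659. Hoxb1 was at 0 in all 4 pools. Summed over its 10 genes, Hoxb measured 25.1 and 24.3 RPM against 33.3 and 32.1 RPM, 1.32 times the LLC mean, with Hoxb9 included.

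Read by paralogue group, no group of more than 1 tested gene was called throughout. Group 9 was measured in all 4 clusters and held both directions, with Hoxb9 and Hoxd9 called higher and the fold changes of Hoxa9 and Hoxc9 below 0 but not called. Group 10 split in the same manner, with Hoxd10 called higher, Hoxc10 called lower and Hoxa10 not called. Group 8 had Hoxd8 called higher, Hoxc8 called lower and Hoxb8 not called. In group 11, Hoxa11 was called lower, and Hoxd11, under the 1 RPM mean, measured higher in both LLC-Chem pools. None of the 4 genes of group 4 was called.

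**Figure D4:**
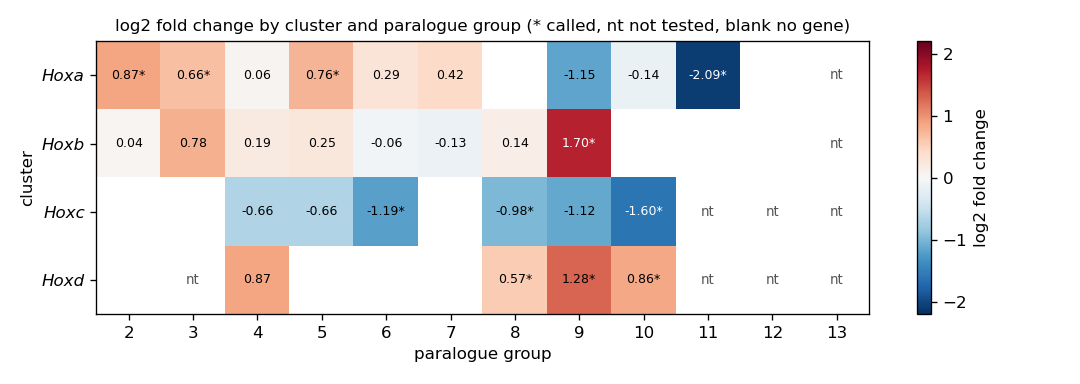
Log2 fold change of LLC-Chem over LLC tumors in a grid of the 4 clusters by the 12 paralogue groups from 2 to 13, with red for higher and blue for lower. An asterisk marks a gene called by limma, nt a gene under 1 RPM that was not tested, and a blank cell no such gene. The Hoxc row is blue and the Hoxd row red, so groups 8, 9 and 10 each hold both colors.

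The sums of the posterior genes, groups 9 to 13, moved apart between clusters. In Hoxd they summed to 27.7 and 23.1 RPM for LLC against 60.2 and 59.0 RPM for LLC-Chem. In Hoxb they summed to 2.05 and 1.90 RPM against 8.10 and 7.35 RPM, nearly all from Hoxb9. In Hoxc they summed to 5.85 and 12.5 RPM against 3.75 and 2.35 RPM, and in Hoxa to 8.85 and 11.5 RPM against 6.35 and 4.85 RPM. The pools of the groups did not overlap in any of the 4 sums, which were higher in LLC-Chem for 2 clusters and lower for 2.

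Levels between genes were compared per kilobase of exon, as the mean of the 4 pools. Hoxd8 led with 18.3 RPM per kilobase, followed by Hoxd9 with 15.5. Hoxa7 came next with 5.47, then Hoxd10 with 4.75, Hoxb7 with 4.62 and Hoxa5 with 4.62, which stood level. Hoxc8 was the first Hoxc gene, at 2.92 RPM per kilobase. In LLC tumors alone, Hoxc8 stood at 3.93 RPM per kilobase, above Hoxa5 at 3.37 and Hoxd10 at 3.32. In LLC-Chem tumors it stood at 1.91, below both, at 5.87 and 6.18.

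The clusters also hold 46 other rows between their first and last Hox gene, most of them antisense and noncoding RNAs. This list by position was made after the values were seen. Of these rows 16 were at 0 in all pools and 6 reached a mean of 1 RPM. Of the 6, limma called 5 higher and 0 lower, beside 9.54% and 13.5% of all genes. Of these 5, 4 reached that mean only through the LLC-Chem pools, namely Gm53, Gm14396, Haglr and Hoxaas2, so their count is a description. Of the 46 rows, 17 averaged at least 0.3 RPM, with 13 not overlapping in the higher direction beside 32.1% of all genes at that level, and 0 in the lower direction beside 37.8%. Among the 13, the exon bases under another gene ran from 0% for Gm53 and Mir196a-1 to 76.2% for Hoxb3os and 95.8% for Gm28230. Reads from such bases cannot be assigned with certainty. Of these 17, 7 were called higher and 0 lower by limma, beside 7.6% and 11% of all genes, and no such row lay in Hoxc. Here too, 3 of the 7 reached the 0.3 RPM mean only through the LLC-Chem pools, as did 5 of the 17. Among the 15 noncoding RNAs chosen by name 2 were tested, Hoxd3os1 and Hoxaas2. Both were called higher, beside 9.54% of all genes, and Hoxaas2 entered the test only through the LLC-Chem pools.

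Gm53, a long intergenic RNA at chr11:96251105-96264868 on the plus strand, lies between Hoxb13 and Hoxb9. It measured 0.70 and 0.60 RPM for LLC against 5.60 and 7.20 RPM for LLC-Chem, a log2 change of 2.58 (SE 0.23, limma adjusted p = 0.009). Gm53 reached the 1 RPM mean only through the LLC-Chem pools. The row of the microRNA gene Mir196a-1 starts 295 bases after the end of Gm53 and lies 6191 bases before Hoxb9. It measured 0 RPM in both LLC pools and 0.75 and 1.20 RPM for LLC-Chem. With the 63 reads that its steps allow at the least, and against a floor of 3 reads in each LLC pool, it was at least 9.23-fold higher. Gm53, Mir196a-1 and Hoxb9 thus stood higher together over one stretch, and Hoxb8 at its edge was not called.

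A library of this kind reads the primary transcript over a hairpin and not the mature microRNA. The mature sequences are given because 3 Hox clusters encode the miR-196 family and 2 the miR-10 family, each with one seed. They are from RefSeq on GRCm38.p6, 5′ to 3′, with the seed (bases 2 to 8) in capitals.
miR-196a-5p, from Mir196a-1 in Hoxb (chr11:96265187-96265208, plus strand) and from Mir196a-2 in Hoxc (chr15:102973365-102973386, plus strand): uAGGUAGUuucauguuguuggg
miR-196b-5p, from Mir196b in Hoxa (chr6:52230129-52230150, minus strand): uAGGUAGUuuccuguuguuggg
miR-10a-5p, from Mir10a in Hoxb (chr11:96317186-96317208, plus strand): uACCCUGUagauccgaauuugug
miR-10b-5p, from Mir10b in Hoxd (chr2:74726074-74726096, plus strand): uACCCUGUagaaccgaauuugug
Counted from 1 at the 5′ end, miR-196b-5p differs from miR-196a-5p by A12C and miR-10b-5p from miR-10a-5p by U12A. Both families are known to target Hox transcripts, Hoxb8 among the targets of miR-196. Since miR-196a-5p is encoded at 2 loci with an identical sequence, its level cannot be assigned to one of them. The row of Mir10a had 7 to 8 reads in LLC and 4 to 6 in LLC-Chem tumors, a ratio between 0.44 and 0.75 with 95% counting intervals that reached from 0.097 to 2.62.

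In Hoxd, the 5 other rows averaging 0.3 RPM or more all lay higher in both LLC-Chem pools, and the remaining 5 rows were below that level. Gm14396, an intergenic RNA at chr2:74695520-74697365 that ends before the Hoxd9 window printed above, measured 0.10 and 0.30 RPM against 1.95 and 2.30 RPM, a log2 change of 1.92 (limma adjusted p = 0.015). Gm28793, antisense with its start inside that window, measured 0.30 RPM in each LLC pool against 1.40 and 1.75 RPM for LLC-Chem. Hoxd3os1, whose span covers Hoxd8 on the opposite strand, measured 2.90 RPM in each LLC pool against 6.15 and 7.30 RPM for LLC-Chem, a log2 change of 1.08 (limma adjusted p = 0.023). Haglr, a long noncoding RNA at the Hoxd1 end, measured 0.60 and 0.25 RPM against 1.60 and 1.85 RPM, a log2 change of 1.29 (limma adjusted p = 0.034). In Hoxa, Hoxaas2, whose span starts between Hoxa2 and Hoxa3 and overlaps the end of Hoxa3, measured 0.90 and 0.75 RPM against 2.30 and 2.70 RPM, a log2 change of 1.18 (limma adjusted p = 0.027). Gm14396, Haglr and Hoxaas2 reached the 1 RPM mean only through the LLC-Chem pools.

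**Figure D5:**
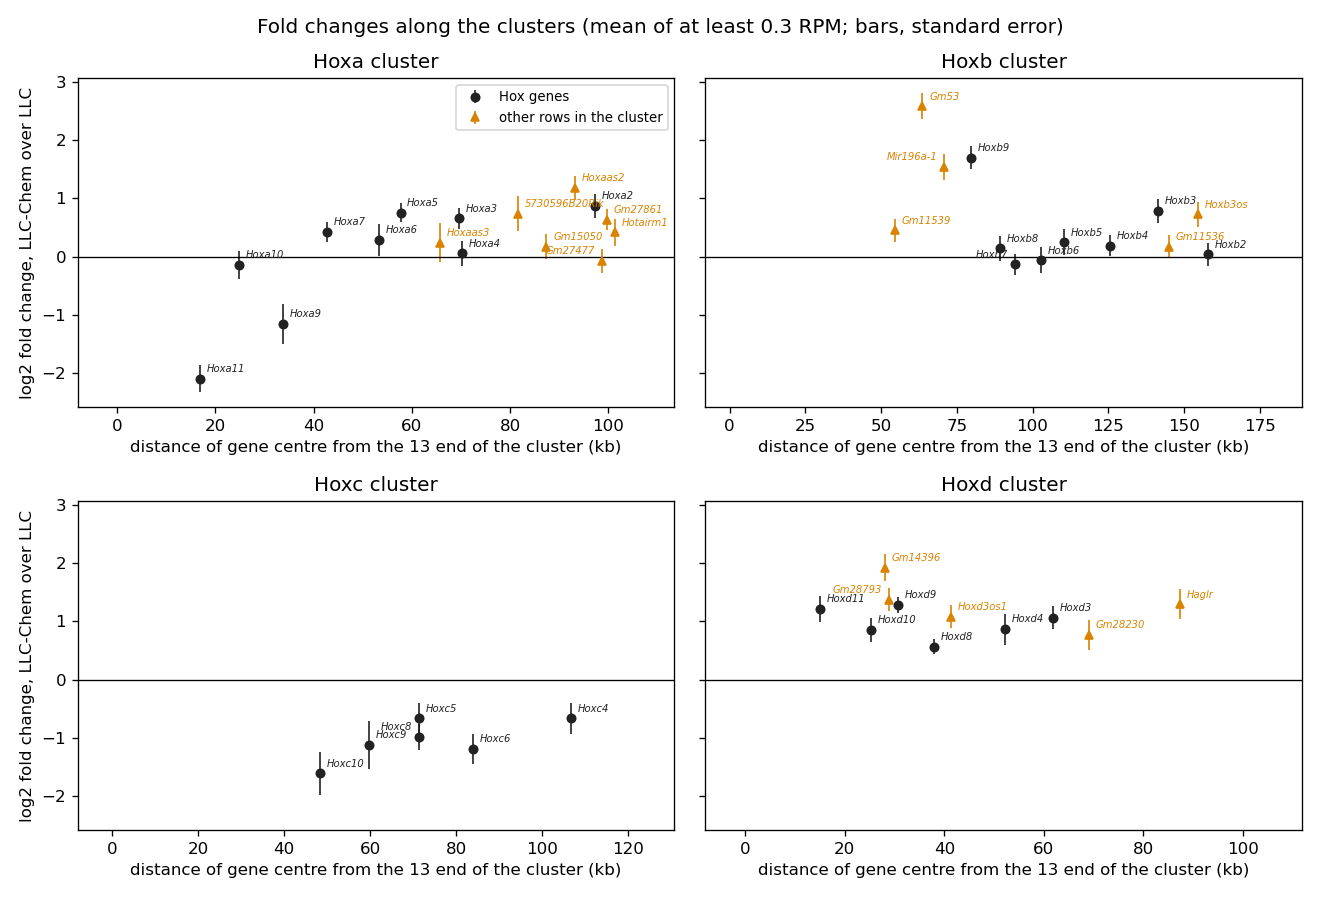
Log2 fold change of LLC-Chem over LLC tumors by the distance of the gene's centre from the group 13 end of each cluster, in kilobases, for rows averaging at least 0.3 RPM. Black circles are Hox genes, orange triangles the other rows inside the cluster, and bars the standard error from limma. Gm53, Mir196a-1 and Hoxb9 stand above the rest of Hoxb, and Hoxa11 stands below the rest of Hoxa.

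Genes just outside the clusters mostly did not pass the test. Of 9 tested neighbors 1 was called higher and 0 lower, beside 9.54% and 13.5% of all genes, and the median log2 fold change was 0.26. Calcoco1, a coactivator gene beside Hoxc, measured 46.7 and 60.4 RPM against 105 and 116 RPM, a log2 change of 1.05 (limma adjusted p = 0.015). It thus moved in the direction opposite to the Hoxc genes. The 3 most abundant neighbors, Cbx5 beside Hoxc, Skap2 beside Hoxa and Hibadh beside Hoxa, were not called, with log2 changes of 0.49, −0.14 and 0.08. Mtx2, beside Hoxd, had a log2 change of 0.01.

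Among the 11 TALE cofactors, all tested, 3 rose and 1 fell, beside 9.54% and 13.5% of all genes, and 7 were not called, with a median log2 fold change of 0.30. Meis1, a cofactor of posterior Hox proteins, measured 24.2 and 20.2 RPM for LLC against 47.7 and 50.5 RPM for LLC-Chem, a log2 change of 1.13 (limma adjusted p = 0.013). Meis2 measured 16.6 and 19.1 RPM against 27.4 and 31.9 RPM, a log2 change of 0.71 (limma adjusted p = 0.029). Pknox2 went the other way, from 4.90 and 6.15 RPM to 1.10 and 1.05 RPM, and fell by 1.93 on the log2 scale (limma adjusted p = 0.012). The abundant Tgif1 and Pbx2 were not called, at 0.10 and 0.30.

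Of 17 Polycomb genes, all tested, 8 rose and 1 fell, beside 9.54% and 13.5% of all genes, with a median log2 fold change of 0.41. Of those that rose, 7 encode parts of PRC1, the complex that reads the H3K27 methyl mark and ubiquitinates histones, among them Cbx2, Cbx8, Rnf2 and Pcgf2. Cbx7, a reader of the H3K27 methyl mark, measured 20.5 and 22.0 RPM against 51.4 and 58.4 RPM, a log2 change of 1.35 (limma adjusted p = 0.009). Cbx6 measured 199 and 179 RPM against 331 and 354 RPM, a log2 change of 0.86 (limma adjusted p = 0.013). In the complex that writes the mark (PRC2), Ezh1 rose with a log2 change of 0.39 (limma adjusted p = 0.044), and its accessory gene Jarid2 fell by 0.59 (limma adjusted p = 0.036). Ezh2, Eed and Suz12, the core of that complex, were not called, at −0.27, −0.15 and 0.09.

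Of 11 trithorax and H3K27 demethylase genes 1 rose, beside 9.54% of all genes, and 10 were not called, with a median log2 fold change of 0.18. The gene that rose was Kdm6b, a demethylase that removes the mark, with 63.1 and 70.4 RPM against 132 and 119 RPM, a log2 change of 0.91 (limma adjusted p = 0.013). Its paralogue Kdm6a had a log2 change of −0.33 (limma adjusted p = 0.106), and Kmt2a, a methyltransferase that maintains Hox expression, one of 0.44 (limma adjusted p = 0.091). Of the Cdx and ParaHox genes, among which the Cdx genes activate Hox clusters in the embryo, 5 of 6 were at 0 in all pools and the highest value of the sixth was 1.25 RPM, so none was tested.

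Retinoic acid is a classical inducer of anterior Hox genes. Of 12 tested genes of its response, 3 rose and 2 fell, beside 9.54% and 13.5% of all genes, with a median log2 fold change of −0.03. Stra6, a receptor that takes up retinol, measured 2.75 and 3.50 RPM against 94.2 and 96.8 RPM, a log2 change of 4.74 (limma adjusted p = 7.2e-04). The receptor genes Rarb and Rarg rose by log2 changes of 1.15 (limma adjusted p = 0.020) and 0.54 (limma adjusted p = 0.024). Crabp1, which binds retinoic acid in the cytoplasm, measured 69.8 and 35.6 RPM against 1.80 and 1.65 RPM and fell by 4.50 on the log2 scale (limma adjusted p = 0.007). Aldh1a1, a retinaldehyde dehydrogenase, fell by 1.68 (limma adjusted p = 0.047).

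Other transcription factors of position and limb moved in both directions. Of 13 tested, 1 rose and 4 fell, beside 9.54% and 13.5% of all genes, with a median log2 fold change of −0.27. Shox2, a gene of the upper limb, measured 12.5 and 8.35 RPM against 20.5 and 20.4 RPM, a log2 change of 0.97 (limma adjusted p = 0.033). Tbx4, a hindlimb and lung mesenchyme gene, measured 1.65 and 2.15 RPM against 0.25 and 0.10 RPM and fell by 1.83 on the log2 scale (limma adjusted p = 0.016). Tbx4 reached the 1 RPM mean only through the LLC pools, so it could enter the test only as lower. Tbx18, En1 and Prrx2 fell by 1.04, 1.15 and 1.14, with adjusted p of 0.021, 0.024 and 0.032 from limma. Prrx1, a limb mesenchyme gene and the most abundant of the list, was not called (log2 fold change 0.41, adjusted p = 0.053, limma).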

How the data were processed

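Total RNA of the tumors was made into TruSeq libraries and sequenced paired-end. The authors mapped the reads with STAR to GRCm38.p4 (mm10), counted them per Ensembl gene with HTSeq and deposited RPM for 47729 genes. Tool versions, counting mode and strand setting are not given in the sources used here. All deposited RPM are whole multiples, within 0.1 of a step, of 0.05 RPM (100% of values), from which library totals and, within 1 or 2 reads a step, read numbers were estimated, the middle of each range being used (30834000 and 28470000 for LLC, 33990000 and 33518000 for LLC-Chem). At this depth the spread between pools limits the precision above a few RPM.

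Groups and replicate numbers came from the sample labels. LLC-Chem was compared with LLC in limma 3.58.1 under R 4.3.3, by two-sided moderated tests with a trended prior variance, after taking log2 of RPM + 0.5. P-values were adjusted by Benjamini-Hochberg over 13694 genes, those averaging 1 RPM or more. Fold changes of low genes are therefore understated. This test was used because RPM are not counts. A gene counted as called when its adjusted p lay under 0.05. Alternatives were pseudocounts of 0.1 and 1, TMM and median-of-ratios scaling, a filter of 0.3 RPM or none, a replicate block, eBayes without trend, leaving out each pool, and edgeR 4.0.16 and DESeq2 1.42.0 on the estimated reads. The crossed block was added after the data were seen. Counting intervals are exact (Clopper-Pearson, 95%).

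Hox genes averaging 1 RPM or more are named with their pools or their range over the pools, unless their results are not reported here. Those called have a log2 change, SE and limma adjusted p, and those next to the threshold at least a log2 change and limma adjusted p. Of the lists (TALE cofactors, Cdx and ParaHox, Polycomb, trithorax, retinoic acid, neighbors, noncoding RNAs, limb factors, cell markers), called and most abundant genes are named, except that results for some genes are not reported here. The members and lists were chosen with earlier results of these data known. Coordinates, exon lengths and overlaps are from GENCODE M21 on GRCm38. Sequences are from RefSeq on GRCm38.p6, and protein sequences were not used here. Plots were made with Python 3.11.15 and matplotlib 3.10.9.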

Additional observations from a re-analysis of the deposited data

How the results depend on the processing

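With 2 pools per group the calls depend on the processing. The main test called 7 Hox genes higher and 4 lower, and no called gene changed direction under those of the 17 alternatives that gave it a value. Hoxa11 had none without LLC pool 1 or without LLC pool 2. Without a filter on low values limma called 0 Hox genes in each direction and 1 gene of all against 3154. It called 0 cofactor and regulator genes against 19, and 0 of the neighbors and noncoding RNAs chosen by name against 3. At an unadjusted p under 0.05 from this fit, 13 Hox genes were higher and 4 lower, beside 7397 of all 26260 genes in either direction. Leaving out each pool in turn gave 0 to 0 Hox genes higher, 0 to 0 lower, 0 to 1 cofactor and regulator genes, 0 to 0 of those neighbors and noncoding RNAs, and 0 to 4 of all genes.

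The deviations of pools with the same replicate number correlated at −0.14 over 13694 genes, so the numbers were not taken to pair the pools. With the replicate block limma called 2 Hox genes higher and 3 lower, beside 4.01% and 7.77% of all genes (Hoxb9, Hoxd9, Hoxa11, Hoxc6 and Hoxc8 kept their calls), 11 cofactor and regulator genes and 1613 of all genes. In edgeR's quasi-likelihood test with the replicate block the counts were 2 higher and 1 lower, beside 3.72% and 5.4% of all genes, 10, 1 of the neighbors and noncoding RNAs, and 1250 of all. With the pairing crossed, a fit added after the data were seen, limma called 7 higher and 6 lower, beside 11.5% and 16.9% of all genes.

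The neighbors and noncoding RNAs called came to 5 with the 0.3 RPM filter and 5 in each of edgeR's quasi-likelihood test, edgeR's likelihood ratio test and DESeq2. The likelihood ratio test called 9 Hox genes higher and 6 lower, beside 14.6% and 16.8% of all genes, and DESeq2 7 and 6, beside 13.7% and 16.6%. Leaving out 1 pool gave fold changes from −0.057 to 0.17 for Hoxa4, −0.025 to 0.40 for Hoxa6 (2 of 4 fits, since it fell under the 1 RPM mean in the other two), −0.34 to 0.062 for Hoxa10, −0.068 to 0.15 for Hoxb2 and −0.23 to 0.10 for Hoxb6. None of these genes was called. At this depth Hox genes with fewer than 3 reads in every pool could not be told from 0.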
